A study of Arabidopsis thaliana with 6 samples.

Results

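The data here concern 3 nuclear genes of Arabidopsis thaliana that act at the last reduction step of chlorophyll synthesis: LIL3:1 (locus AT4G17600), LIL3:2 (locus AT5G47110) and AT1G74470, which encodes geranylgeranyl reductase. They were chosen by gene name from the 13350 genes that a probe set of 1 gene represents, with earlier results of these arrays known, so their p-values describe these arrays and are not independent evidence. The brightest probe set was to stand for a gene with several, but each of the 3 genes had 1 probe set: 245354_at for LIL3:1, 248828_at for LIL3:2 and 260236_at for AT1G74470. Signal strength therefore decided nothing in the choice.

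Transcripts were measured in whole seedlings that stayed in darkness for 4 days, on 6 Affymetrix ATH1 arrays, each of which takes biotin-labelled RNA of 1 sample. The groups were pif1-2, an insertion line of PIF1 that the series title gives as Salk_072677, and wild type (Col-0), with 3 arrays in each. All seeds had 4 days of cold and 1 hour of light on MS medium before the dark period at 21 °C, and per the labels wild-type seedlings stood about 2 mm taller than the mutant. The sample titles name 1 mutant allele. They call the replicates biological without saying whether these were separate growths, so the p-values reflect the spread among these samples, which may be technical. The loci given for the mutated gene disagree: At2g20810 in the title, but AT2G20180 for PIF1 in the RefSeq gene table. No probe set is named here for either locus, and the genotypes rest on the labels.

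Chlorophyll is a ring, the chlorophyllide, joined to a long phytol tail that holds the pigment in the membrane. The tail is made from geranylgeranyl diphosphate of the plastid, and geranylgeranyl reductase saturates it to the phytyl form, either as the free diphosphate or after it has been joined to the ring; the same phytyl group is used for tocopherol (vitamin E). LIL3 proteins belong to the light-harvesting-like family of thylakoid proteins, bind geranylgeranyl reductase and hold it at the membrane, and Arabidopsis plants that lack LIL3:1 as well as LIL3:2 are known to keep chlorophyll with an unreduced tail and little tocopherol. In darkness a flowering plant stops at protochlorophyllide, because its oxidoreductase needs light, and PIF1 is a phytochrome-binding basic helix-loop-helix factor that acts on this pathway in the dark.

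All 3 genes had lower signals on every pif1-2 array than on any wild-type array. The mean signal of LIL3:1 in pif1-2 was 48.0% below that of wild type, the mean of LIL3:2 36.0% below and the mean of AT1G74470 20.7% below. Groups lay apart in this direction for 6.58% of the 17695 probe sets tested. None of the 3 passed the threshold of 0.05 on the limma p-value adjusted over all those probe sets, which 0.0113% of them passed in the lower direction (2 probe sets). At an unadjusted limma p under 0.05 all 3 were lower, against 4.36% of the probe sets tested. Signals are MAS5 intensities scaled to a trimmed mean of 500 on each array, and fold changes are differences of log2(signal + 16), pif1-2 minus wild type. In whole seedlings, fewer cells of a type and less RNA per cell cannot be told apart.

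LIL3:1 had signals of 541, 524 and 500.04 on the pif1-2 arrays of replicates 1, 2 and 3, against 935, 995 and 1080 on the wild-type arrays. The values of each group lay close together and the groups were far apart: the lowest wild-type signal exceeded the highest pif1-2 signal by 394 units, more than the range within either group. The means were 522 ± 20.8 in pif1-2 and 1003 ± 72.8 in wild type (SD, n = 3 each). The log2 fold change was -0.92 (SE 0.14, 95% interval -1.22 to -0.62, limma adjusted p = 0.112). By unadjusted p it stood at rank 4 of the 17695 probe sets, and 146 of them (0.825%) had a lower log2 fold change. Arrays weighted by their quality in limma gave an adjusted p of 0.0388 with a log2 fold change of -0.92. A fit with the replicate number as a block gave 0.0153, although those numbers are not known to pair the samples. The side of the threshold on which LIL3:1 fell thus depended on these choices.

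LIL3:2, the second LIL3 gene, had signals of 3788, 3991 and 2258 on the pif1-2 arrays of replicates 1, 2 and 3, against 5430, 4985 and 5265 on the wild-type arrays. The pif1-2 array of replicate 3 was far below the other pif1-2 arrays, and even the highest pif1-2 signal was 994 units below the lowest of wild type. Means were 3346 ± 947 in pif1-2 and 5227 ± 225 in wild type (SD, n = 3 each), which is a coefficient of variation of 28.3% in pif1-2 and 4.31% in wild type. The log2 fold change was -0.68 (SE 0.19, 95% interval -1.11 to -0.26, limma adjusted p = 0.449). Without pif1-2 replicate 3 it was -0.42 (limma adjusted p = 0.550).

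That array stood apart from the other 5 as a whole. Its score on the first principal component of the log2 signals, which held 26.9% of the variance, was 47.9, whereas the other arrays lay from -13.2 to -5.23. The second component held 23.5% and did not set it apart (2.49). There the replicate 1 arrays, at -27.4 in pif1-2 and -22.4 in wild type, lay below the others, at 0.875 to 30.9. The actin 3-prime to 5-prime signal ratio of the pif1-2 replicate 3 array was 8.07, against 3.53 to 5.17 on the others. That ratio is a measure of how far the labelled RNA reached from its 3-prime end. The part of this array's RNA or hybridisation in the low LIL3:2 signal was not tested. LIL3:2 was lower on the other pif1-2 arrays too, at 72.5% and 76.4% of the wild-type mean, against 43.2% on the array of replicate 3. LIL3:1 did not show such a gap, with 54.0%, 52.3% and 49.8% of the wild-type mean on the pif1-2 arrays of replicates 1, 2 and 3.

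AT1G74470, the reductase itself, had signals of 9090, 10380 and 9270 on the pif1-2 arrays of replicates 1, 2 and 3, against 12052, 11998 and 12171 on the wild-type arrays. The wild-type arrays were nearly equal, with a coefficient of variation of 0.737%, and the pif1-2 arrays spread more widely below them, at 7.29%. The array of pif1-2 replicate 2 was nearest to wild type, at 86.0% of the wild-type mean, against 75.3% and 76.8% on the other pif1-2 arrays. Means were 9580 ± 699 in pif1-2 and 12074 ± 89.0 in wild type (SD, n = 3 each). The log2 fold change was -0.34 (SE 0.12, 95% interval -0.59 to -0.081, limma adjusted p = 0.574), and 10.6% of the probe sets tested had a lower one.

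**Figure D1:**
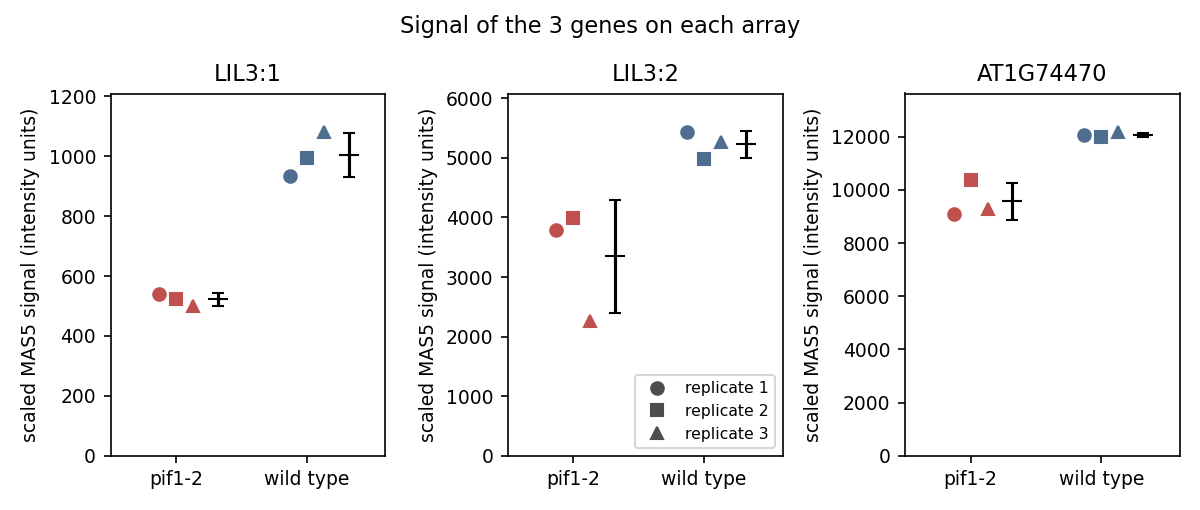
Scaled MAS5 signal (y axis, intensity units from 0) of LIL3:1, LIL3:2 and AT1G74470 on each of the 3 pif1-2 arrays (left, red) and 3 wild-type arrays (right, blue), with marker shapes for replicate numbers and black bars for mean and SD. In each panel all pif1-2 points lie below all wild-type points, and the pif1-2 replicate 3 point of LIL3:2 lies at 2258, below the other pif1-2 points at 3788 and 3991.

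The fold changes of the 3 genes can be set against those of all probe sets. The median log2 fold change of all probe sets tested was 0.00095, and 49.9% of them were below 0. Scaling each array to the same trimmed mean largely sets these values, so fold changes are relative to the array as a whole. The median moved by less than 0.1 on the log2 scale under the other scalings, to 0.020 with median centring and 0.0058 with quantile normalization. With quantile normalization the fold change of AT1G74470 was -0.40 (limma adjusted p = 0.433).

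**Figure D2:**
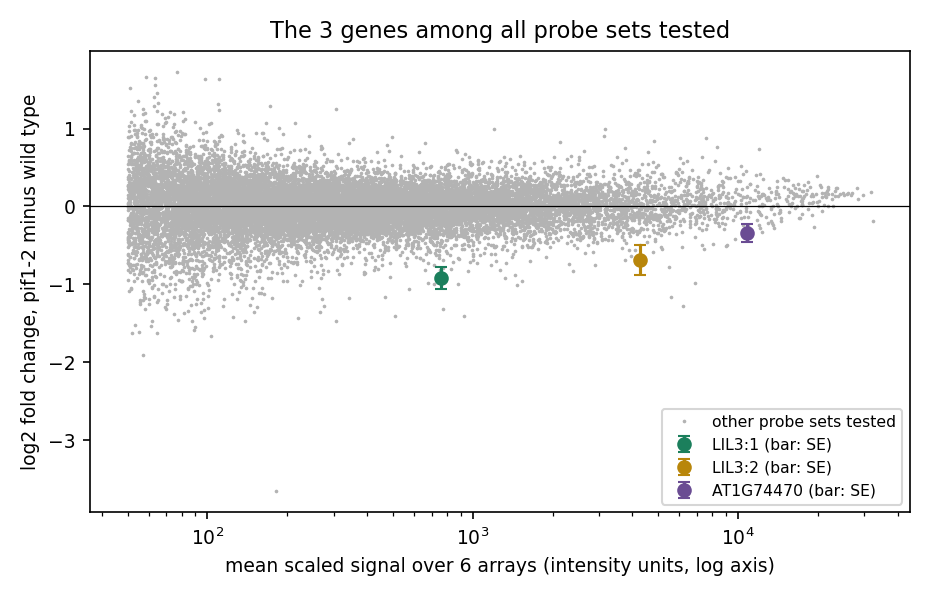
Log2 fold change, pif1-2 minus wild type (y axis), against the mean scaled signal over the 6 arrays (x axis, intensity units, log axis) for the 17695 probe sets tested (grey) and the 3 genes (coloured, bars show SE). LIL3:1 at -0.92, LIL3:2 at -0.68 and AT1G74470 at -0.34 lie on the lower side of the probe sets of similar signal.

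Whether the genes moved by different amounts was examined within each array, from the log2 signal of one gene minus that of another with the wild-type mean set to 0; exact two-sided permutation tests over the 6 arrays cannot give a p below 0.1 here, and p-values were adjusted over the 3 pairs by Benjamini-Hochberg. LIL3:1 minus AT1G74470 was -0.46, -0.70 and -0.60 on the pif1-2 arrays of replicates 1, 2 and 3, against -0.095, -0.00086 and 0.096 on the wild-type arrays. On every pif1-2 array LIL3:1 was thus further below its wild-type mean than the reductase was, by a mean of 0.58 on the log2 scale, with no overlap between the groups (exact permutation p = 0.1, the smallest possible, and adjusted p = 0.3). That difference was -0.65 to -0.53 when any 1 array was left out. The wild-type mean signals were 1003 for LIL3:1 and 12074 for AT1G74470. Whether probe sets at such different signals respond alike to a change in RNA was not tested.

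The LIL3 genes did not separate from each other in this way. LIL3:1 minus LIL3:2 was -0.41 and -0.53 on the pif1-2 arrays of replicates 1 and 2 but 0.22 on that of replicate 3, against -0.15, 0.057 and 0.096 on the wild-type arrays (mean difference -0.24, exact permutation p = 0.4 and adjusted p = 0.4). The mean difference was -0.47 without pif1-2 replicate 3, -0.15 without pif1-2 replicate 1 and -0.091 without pif1-2 replicate 2, a range that does not show that the 2 genes moved alike. LIL3:2 minus AT1G74470 was -0.053, -0.17 and -0.82 on the pif1-2 arrays of replicates 1, 2 and 3, against 0.059, -0.058 and -0.00030 on the wild-type arrays (mean difference -0.35, exact permutation p = 0.2 and adjusted p = 0.3). The pif1-2 and wild-type arrays overlapped for that pair, and the difference was -0.11 without pif1-2 replicate 3.

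**Figure D3:**
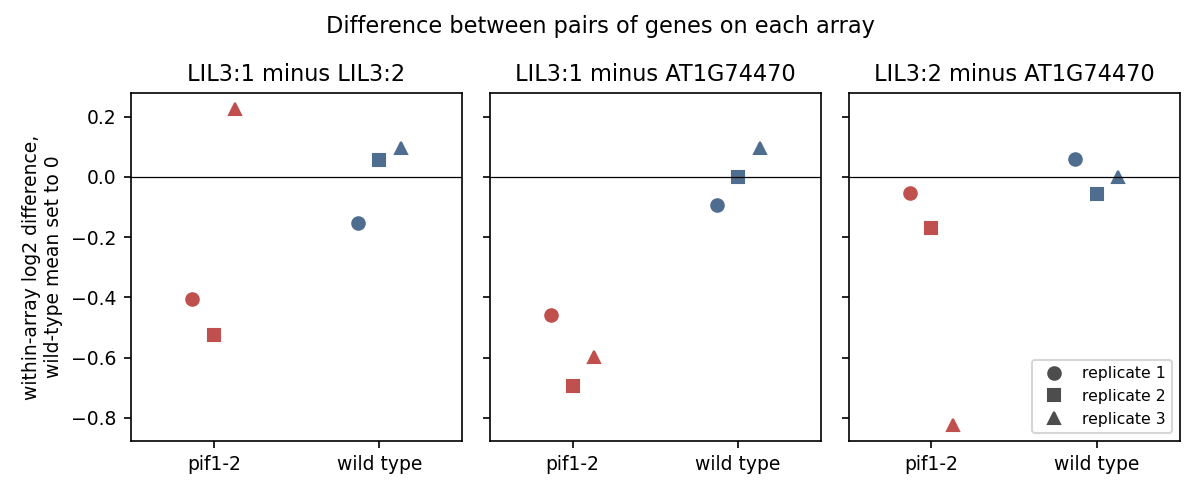
Within-array log2 difference between 2 genes (y axis, wild-type mean set to 0) on the 3 pif1-2 arrays (left, red) and 3 wild-type arrays (right, blue), for each of the 3 pairs. LIL3:1 minus AT1G74470 lies between -0.70 and -0.46 on the pif1-2 arrays, below all wild-type arrays, whereas the pif1-2 replicate 3 array departs from the other pif1-2 arrays in both pairs with LIL3:2.

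The genes around these 3 in the pathway were described from 5 lists: the light-harvesting-like family, the supply of geranylgeranyl diphosphate in the plastid, its users, chlorophyll synthesis, and chlorophyll breakdown with the release of phytol. Beside the 3 genes the lists hold 64 genes, of which 13 were matched by name to a probe set of 1 gene and 12 were tested. The others were not analysed here. Only 56.4% of the probe sets tested name 1 gene in the annotation used, so an unmatched gene may still have a probe set. No gene of the supply list and no other light-harvesting-like gene was among those matched. Of the 12, 0 passed the threshold over all probe sets with limma, and at an unadjusted limma p under 0.05 there was 1 lower and 0 higher, against 4.36% lower and 3.31% higher among all probe sets tested. Their median log2 fold change was -0.22, against 0.00095 for all probe sets tested, and 10 were below 0 and 2 above. Groups lay apart for 2 of them, HEMB2 and HEME2, each lower in pif1-2, where 6.58% of all probe sets tested lay apart in that direction. HEMB2 was dim, at 75.0 to 89.9 on the pif1-2 arrays and 96.2 to 117 on the wild-type arrays, so its groups were close. The members of the lists were set with earlier results of these arrays known.

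The lowest fold change of the 12 was that of PORB, a light-dependent protochlorophyllide oxidoreductase, whose product is the ring that receives the tail. PORB, the 1 gene of the 12 with an unadjusted p under 0.05, had signals of 6330, 9171 and 4898 on the pif1-2 arrays of replicates 1, 2 and 3, against 8691, 10714 and 8379 on the wild-type arrays, and its log2 fold change was -0.48 (SE 0.20, limma adjusted p = 0.637). Its groups overlapped, and its lowest array was that of pif1-2 replicate 3, as for LIL3:1 and LIL3:2. VTE6, HEME1, HEMB2 and NOL also had their lowest signal on that array, and the rest of the 12 did not. VTE6 (AT1G78620), the phytyl phosphate kinase that makes phytyl diphosphate for tocopherol, averaged 440 ± 102 in pif1-2 and 521 ± 70.8 in wild type (SD, n = 3 each), with overlapping groups; the log2 fold change was -0.25 (SE 0.18, adjusted p = 0.802 with limma).

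The tested steps before PORB had log2 fold changes from -0.30 to 0.13, and none passed the threshold. The uroporphyrinogen decarboxylase genes HEME1 and HEME2 were at -0.28 (SE 0.20) and -0.27 (SE 0.14), HEMB2, annotated as a 5-aminolevulinate dehydratase gene, at -0.30 (SE 0.26), CHLI2, a subunit of magnesium chelatase, at -0.23 (SE 0.18), and GSA1, a glutamate-1-semialdehyde aminotransferase, at -0.21 (SE 0.14). HEMA2, a glutamyl-tRNA reductase, and HEMB1, the other dehydratase gene, were near 0, at -0.047 and -0.043. HEMF2, a coproporphyrinogen oxidase gene, was at 0.085 (SE 0.33) and CHLM, the magnesium-protoporphyrin methyltransferase, at 0.13 (SE 0.13), the only values above 0 among the 12. NOL, a chlorophyll b reductase of the breakdown path, had a log2 fold change of -0.014, with 257 ± 54.7 in pif1-2 and 256 ± 22.8 in wild type (SD, n = 3 each). HEMA3 was left out of the test because its mean signal over the 6 arrays was under 50.

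**Figure D4:**
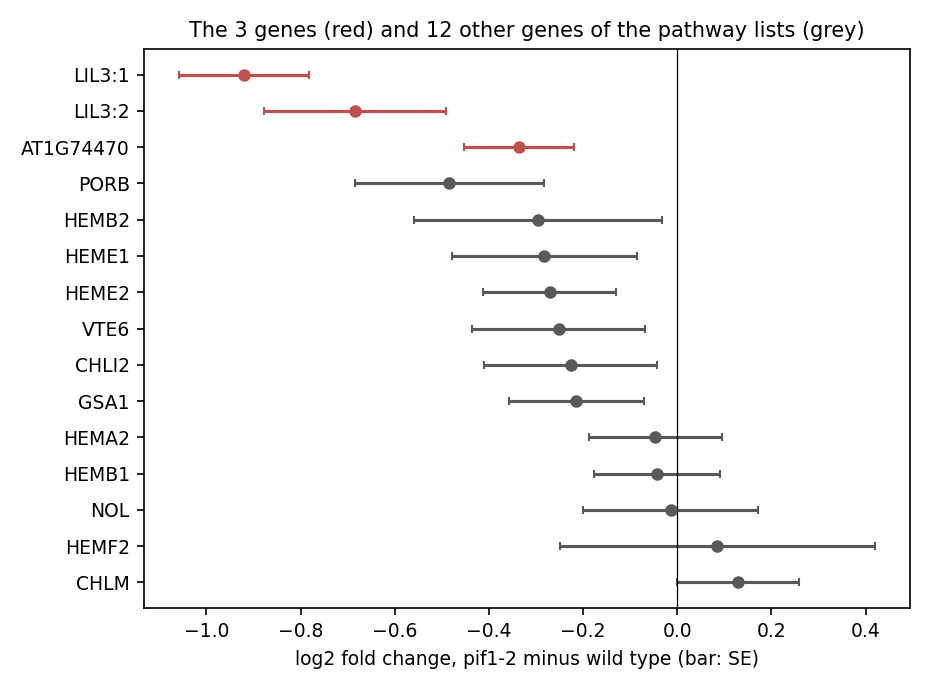
Log2 fold change, pif1-2 minus wild type (x axis, bars show SE), of the 3 genes (red, top) and of the 12 other tested genes of the pathway lists (grey, below), 1 gene per row. Values run from -0.92 for LIL3:1 to 0.13 for CHLM, and of the grey genes PORB, at -0.48, is lower than AT1G74470.

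Root markers and reference genes were described in the same samples. Of 8 root markers 3 were matched by name to a probe set of 1 gene: EXPA7, EXPA18 and AT1G30870. Their summed signal was 417 to 858 on the pif1-2 arrays and 431 to 891 on the wild-type arrays, which overlap. Without detection calls it is not known how far these low signals lay above background. Of 7 reference genes 3 were matched, AT2G28390, AT4G34270 and GAPC2. They summed to 13068 to 14665 on the pif1-2 arrays and 12664 to 14275 on the wild-type arrays. GAPC2 made up most of these sums, with means of 13268 in pif1-2 and 12577 in wild type. AT4G34270 had 239, 438 and 452 on the pif1-2 arrays of replicates 1, 2 and 3, against 398, 415 and 328 on the wild-type arrays. AT2G28390 had 468, 509 and 342, against 501, 481 and 439. On the pif1-2 array of replicate 3, AT2G28390 was thus at its lowest and AT4G34270 at its highest. The log2 fold changes of AT2G28390, AT4G34270 and GAPC2 were -0.12, -0.060 and 0.077. No seed storage gene was matched by name to a probe set of 1 gene, which does not show that the array lacks one.

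The patterns most like those of the 3 genes were looked for among 9978 other tested probe sets of 1 gene, by Pearson correlation of log2(signal + 16) over the 6 arrays. Such a correlation follows the difference between the groups as well as the spread within them and comes from the same arrays, so it is given as a description, with the value after removal of the group means beside it. Of the 9978, 49 had r over 0.95 with LIL3:1, 64 with LIL3:2 and 30 with AT1G74470, so the 4 named for each are among many alike. For LIL3:1 the closest were AT5G18470 (r = 0.992), AT1G33265 (0.992), AT4G34290 (0.989) and AT5G44580 (0.989), and without group means these were 0.681, 0.622, 0.886 and 0.859. AT4G34290 and AT5G44580 had log2 fold changes of -0.87 and -0.85 (limma adjusted p = 0.152 for both), near that of LIL3:1. AT4G34290 had signals of 215, 234 and 200.5 on the pif1-2 arrays of replicates 1, 2 and 3, against 366, 398 and 469 on the wild-type arrays.

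The genes most like LIL3:2 were AT3G60180 (r = 0.990), AT5G45620 (0.987), AT5G35740 (0.984) and AT3G60520 (0.984), and the correlations stayed at 0.988, 0.973, 0.987 and 0.983 without group means. All 4 had their lowest signal on the array of pif1-2 replicate 3, as LIL3:2 had, which the choice by correlation favours. The signal of AT5G45620 there was 685, against 872 and 960 on the other pif1-2 arrays and 1035 to 1051 on the wild-type arrays. The log2 fold changes of the 4 genes, -0.36 to -0.30, became -0.19 to -0.15 without that array.

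For AT1G74470 the closest were AT4G31040 (r = 0.997), AT1G31220 (0.992), AT4G24350 (0.985) and AT3G45050 (0.981), with 0.990, 0.947, 0.933 and 0.843 without group means. Like AT1G74470, all 4 had their highest pif1-2 signal on the array of replicate 2, which the choice by correlation also favours. AT4G24350 was dim in pif1-2, at 8.81, 46.2 and 21.9 on the arrays of replicates 1, 2 and 3. Its wild-type signals were 99.6 to 107. How far its pif1-2 signals lay above background is not known. No conclusion is drawn from their order, its 0.933 or the size of its group difference. AT4G31040 had 506, 610 and 511 on the pif1-2 arrays of replicates 1, 2 and 3, against 715, 725 and 726 on the wild-type arrays, and its log2 fold change was -0.41 (SE 0.14; limma adjusted p = 0.574). None of these 12 genes passed the threshold over all probe sets, and the groups lay apart for each of them, which the choice by correlation favours. The 3 genes of the reductase step themselves were not picked by correlation, but they were chosen with earlier results of these arrays known. Among them, r was 0.82 between the LIL3 genes, 0.93 between LIL3:1 and AT1G74470 and 0.84 between LIL3:2 and AT1G74470. Much of this follows the group difference, as the values without group means were 0.38, 0.055 and 0.45.

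The direction of each of the 3 fold changes was kept in all 16 alternative settings, and the unadjusted limma p was under 0.05 in each. Because the groups lay apart for each gene, leaving out an array could not reverse a direction. Nor could a change of pseudocount, filter, variance model, array weights or replicate block. Only the changes of scaling could have done so. The share of all probe sets that kept to the same rule is not given here. LIL3:1 ranged from -0.97 to -0.87 when 1 array was left out. LIL3:2 ranged from -0.83 to -0.42 and AT1G74470 from -0.39 to -0.30.

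**Figure D5:**
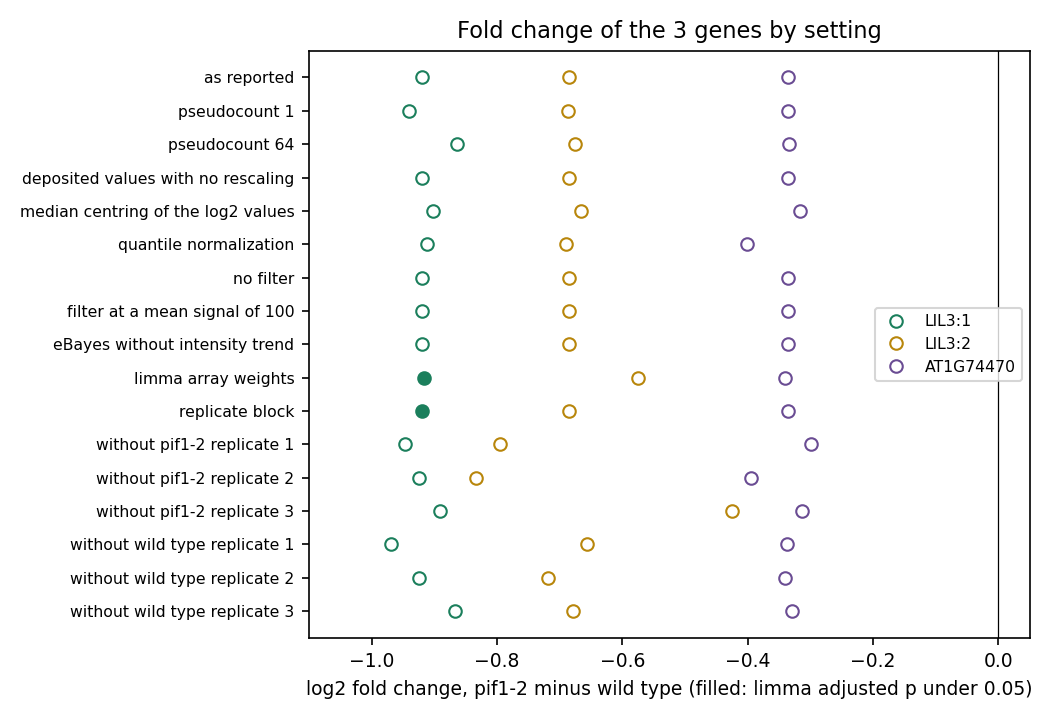
Log2 fold change, pif1-2 minus wild type (x axis), of the 3 genes as reported and under alternative settings of pseudocount, scaling, filter, variance model, array weights, replicate block and left-out arrays (rows). Open points had a limma adjusted p of at least 0.05, and the filled points are LIL3:1 with array weights (0.0388) and LIL3:1 with the replicate block (0.0153). LIL3:2 moves most, to -0.42 without pif1-2 replicate 3.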

How the data were processed

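RNA of 6 samples was measured on 1 array each, and groups were taken from the sample titles, because another label field counts the allele number upwards from sample to sample. Each deposited value is an intensity on a linear scale, computed by the authors with MAS5 per the submitters' processing notes, which give neither its version nor its settings. Scaling by the authors is visible in the deposited intensities, whose trimmed mean is 500.04 on all 6 arrays. Here the 64 control probe sets were removed, arrays were rescaled to a 2% trimmed mean of 500, 5051 probe sets with a mean under 50 were left out, and log2(signal + 16) of the other 17695 was fitted with limma 3.58.1 in R 4.3.3 (lmFit, eBayes with intensity trend; two-sided; Benjamini-Hochberg over all probe sets tested). The pseudocount makes changes of dim probe sets look smaller. The fit was tested on simulated data before use. The simulation drew independent noise of equal spread in both groups, so it did not cover an outlying array or unequal spreads. The number of arrays limits the precision. Replicate numbers shared by the groups were not treated as pairs, because not all correlations of same-numbered deviations were above the limit of 0.1. Those correlations were 0.0880 to 0.251, against -0.158 to 0.0535 between arrays of different numbers. Names came from the platform annotation (1 gene for 13513 probe sets) and the RefSeq table of TAIR10.1. No build or sequence was used here, so no coordinates are printed. The members and lists were chosen with earlier results of these data known. Named genes are the 3 members, list members with a probe set of 1 gene, and the 4 genes most correlated with each member. Alternatives covered pseudocount, scaling, filter, variance model, array weights, replicate block and leaving out each array.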

Additional observations from a re-analysis of the deposited data

How the results depend on the processing

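Over 16 alternative settings the direction of all 3 fold changes held. Because the groups lay apart, this was fixed in advance in all settings except those that changed the scaling. The limma adjusted p of LIL3:2 (0.0867 to 0.9996) and of AT1G74470 (0.219 to 0.9996) stayed above 0.05. LIL3:1 passed with array weights (-0.92, limma adjusted p = 0.0388) and with a replicate block (-0.92, 0.0153), and missed in the other 14 settings (up to 0.508). With that block LIL3:2 was at an adjusted p of 0.0867 and AT1G74470 at 0.219. The numbers are not known to pair the samples, although all 6 arrays correlated best with the array of their own number, a hint from the data. Among all probe sets the number called was 2 as reported, 8 with array weights and 45 with the replicate block, and 1 with median centring, quantile normalization, no filter or no intensity trend; the cause was not tested. It ranged from 0 to 7 when 1 array was left out, with 0 without wild type replicate 2 (816 at an unadjusted limma p under 0.05) or replicate 3 (912), 7 if wild type replicate 1 was the one removed, and 1 for each pif1-2 array removed. The differences between genes kept their sign in each of their 11 settings, and their exact permutation tests over 3 arrays against 3 cannot reach the threshold. No detection calls were used here, so signal over background is not known for single probe sets, and the number of arrays limits the precision.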
